A study of Homo sapiens with 7 samples.

Results

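The genes described here are the 266 ZNF zinc finger genes that were transcribed, present as mRNA and bound to polysomes in HCT116 cells. Of the 20056 gene symbols with values, 528 consisted of ZNF, a number and at most 1 further letter. A gene was kept when its mean level was at least 1 RPKM (reads scaled to the length of the exons and to the size of the library) in each of 3 assays, which left 266 of the 528. The levels themselves therefore chose the genes, and a gene with very little polysome-bound mRNA could not be among them.

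A C2H2 zinc finger is a short protein loop folded around a zinc ion that is held by a pair of cysteines and a pair of histidines. Arrays of such fingers, joined by a conserved linker, read DNA base by base, and C2H2 proteins form the largest family of sequence-specific transcription regulators in the human genome. Many carry a KRAB domain, which recruits the co-repressor TRIM28 and with it the histone methyltransferase SETDB1 and HP1 proteins, and many of these KRAB genes lie in clusters on chromosome 19. Transcripts of transcription regulators are known as a class for fast turnover, and a few ZNF symbols belong to proteins of quite different function, such as ribosome assembly or the cytoskeleton.

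The coding sequence of a single finger is shown for 5 of the genes, chosen because the results below turn on them: ZNF557, with one of the deepest drops from nascent RNA to mRNA; ZNF629, among the most transcribed; ZNF146, among the most abundant as mRNA; and ZNF143 and ZNF622, which were higher on polysomes than in total mRNA. Each run reads 5′ to 3′ on the coding strand from the first cysteine codon to the last histidine codon, and the capitals mark the codons of the 4 residues that hold the zinc.
ZNF557: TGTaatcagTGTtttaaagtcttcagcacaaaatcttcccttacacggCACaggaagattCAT
ZNF629: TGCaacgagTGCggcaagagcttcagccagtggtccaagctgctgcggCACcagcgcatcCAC
ZNF146: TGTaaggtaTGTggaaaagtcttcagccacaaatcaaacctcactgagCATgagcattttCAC
ZNF143: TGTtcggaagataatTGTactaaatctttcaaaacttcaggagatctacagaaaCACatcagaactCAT
ZNF622: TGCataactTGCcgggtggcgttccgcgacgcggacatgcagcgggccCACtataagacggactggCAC
The bases are those of GRCh37, and each finger lies within a single coding exon, at chr19:7082922-7082984 on the plus strand for ZNF557, chr16:30795133-30795195 on the minus strand for ZNF629, chr19:36727394-36727456 on the plus strand for ZNF146, chr11:9519275-9519343 on the plus strand for ZNF143 and chr5:16465691-16465759 on the minus strand for ZNF622. The fingers of ZNF557, ZNF629 and ZNF146 span 63 bases with the spacing of the classical form. Those of ZNF143 and ZNF622 span 69, with more residues between the cysteines in ZNF143 and between the histidines in ZNF622. In GENCODE 44 the 5 genes hold 10, 19, 10, 7 and 3 matches to the C2H2 pattern, in the order shown.

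HCT116 is a human colorectal carcinoma cell line, and all libraries came from cells in log phase, grown without serum in McCoy's 5A medium with EGF, insulin and transferrin. Transcription rate (TR) was read by GRO-seq, a nuclear run-on that labels the RNA being made by engaged polymerases, in 2 libraries. Transcript abundance (RA) was read by RNA-seq in 3 libraries, and translation activity (TA) by sequencing mRNA from the polysome fractions of a sucrose gradient in 2 libraries. Cells for the polysomes were first treated with cycloheximide, which holds ribosomes on the mRNA; the study's methods name no such treatment for the other assays, so TA differs from RA and TR in this too, and its effect cannot be told apart from the assay. The study calls its replicates biological, but neither the labels nor its methods say that they were separate cultures, and the p-values below measure only the spread between these libraries. As a check of the cell type, 7 of 7 epithelial markers were at 15.1 RPKM or more in RA, with KRT19 the highest at 977, whereas 1 of 10 markers of other cell types, COL1A1 at 11.5, was above 1 RPKM. RPKM is a relative unit, and less RNA per cell and fewer cells that carry it cannot be told apart.

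Whole read numbers could be recovered from the RPKM values, which gave library sizes of 3391897 and 5629982 reads in TR, 20299018 to 22532134 in RA, and 30805391 and 22421062 in TA. These sizes are the totals that the RPKM values are scaled to, and 99.7 to 99.8% of each lay on the listed genes. The study counted exonic reads only, so the totals need not be all reads sequenced. In counted reads TR was the shallowest assay: a ZNF gene had a median of 164 and 314.5 reads in the TR libraries, and the lowest had 16. Only 1 of the 266 had fewer than 20 reads, and that in the first TR library. The ZNF genes took 1.86 and 2.10% of these counted reads in TR, 0.784, 0.903 and 0.880% in RA, and 0.606 and 0.569% in TA. By the means of the libraries, their share of the counted reads was thus 2.32 times larger in TR than in RA. It was 3.37 times larger in TR than in TA, with no overlap between the assays.

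Of the 528 ZNF symbols, 364 reached 1 RPKM in TR, 312 in RA and 266 in TA, each set lying inside the one before. The 262 left out were 52 that reached the threshold in TR only, 46 that reached it in TR and RA, and 164 that reached it nowhere. The last group was low, though not uniformly at 0: its TR reached 0.979 RPKM, its median was 0.0263 RPKM, 125 of the 164 were under 0.1 RPKM, and 130 had 3 or fewer reads over both TR libraries together. Chromosome 19 held 106 of the 160 symbols of this group that could be placed (66.2%), against 35.5% of the 265 placed genes that were kept. How reads that match several of the similar genes there were counted is not stated, and their part in these low values was not tested. Among symbols outside the family a like share reached 1 RPKM in TR, 70.8% against 68.9% of the ZNF symbols. Of those that did, 73.1% of ZNF symbols and 76.5% of the 13829 others also reached it in TA. The genes nearest to the threshold were set by TA: ZNF566 at 1.01, ZNF431 at 1.01 and ZNF589 at 1.03 RPKM lay just inside it, and ZNF75D at 0.985, ZNF585B at 0.979 and ZNF510 at 0.970 just outside.

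The levels of the 266 ZNF genes fell from assay to assay. Their median was 14.2 and 16.0 RPKM in the TR libraries, 5.09, 5.30 and 5.75 in RA, and 3.43 and 3.36 in TA. The 10559 other genes with at least 1 RPKM in each assay had medians of 17.6 and 17.5, of 14.9, 14.5 and 14.9, and of 11.4 and 11.8. The ZNF genes thus lay close to other genes in nascent RNA and well under them in mRNA and on polysomes. They also spread less than other genes: the SD of log2 RPKM was 1.03 in TR, 1.17 in RA and 1.27 in TA, against 1.29, 1.66 and 1.95. Replicates of a ZNF gene differed by a pooled SD of 0.23, 0.34 and 0.34 on the log2 scale in TR, RA and TA.

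**Figure D1:**
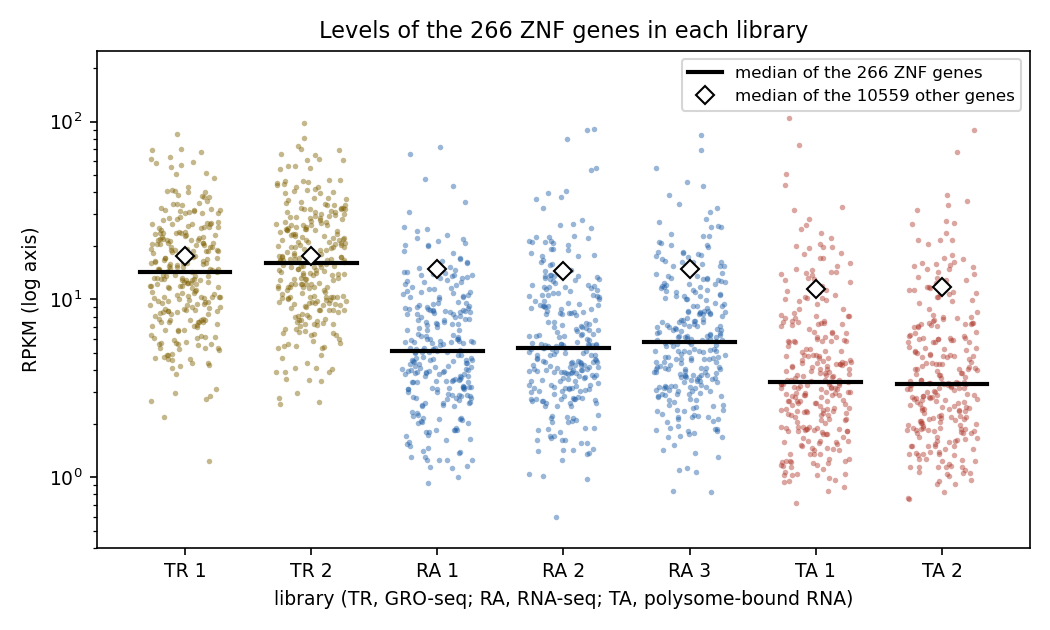
Level of each of the 266 ZNF genes (points) in each of the 7 libraries, in RPKM on a log axis, with the median of the ZNF genes (bars) and of the 10559 other genes at 1 RPKM or more in each assay (diamonds). The ZNF medians of 14.2 and 16.0 RPKM in TR sit just under those of other genes, and the medians of 5.09 to 5.75 in RA and of 3.43 and 3.36 in TA sit far under them.

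The most transcribed ZNF genes were not the most abundant. ZNF580 led TR at 84.7 and 98.0 RPKM, followed by ZNF629 at 69.9 and 80.6 and ZNF768 at 61.3 and 72.6. In RA the highest were ZNF593, at 47.4, 91.0 and 83.8 RPKM, ZNF146, which consists of little but fingers, at 43.5, 89.3 and 69.0, and ZNF664 at 66.0, 80.0 and 54.8. In TA they were ZNF207, a kinetochore and spindle protein, at 104 and 67.6, ZNF593 again at 73.8 and 89.8, and ZNF622 at 51.0 and 38.7. ZNF593 and ZNF622 are ribosome assembly factors. All of the exonic length of ZNF593 is overlapped by an annotated gene on the other strand, ZNF593OS, and whether the counting used strand is not stated, so its values are uncertain. At the low end lay ZNF438, ZNF25 and ZNF532 in TR (means of 1.94, 2.67 and 2.83 RPKM), ZNF112, ZNF235 and ZNF566 in RA (1.03, 1.04 and 1.11), and the 3 genes just inside the threshold in TA.

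Across the 266 genes, log2 levels in TR and RA had a Pearson r of 0.546, those in RA and TA 0.893, and those in TR and TA 0.497. For the other 10559 genes these were 0.680, 0.936 and 0.613. These values are across genes, which are not independent replicates, and the thresholds narrow the range of the levels.

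In RPKM, mRNA was far below nascent RNA for most of the family. The comparison of RA with TR asks how much mRNA the cell holds per unit of transcription, and its log2 ratio is called the stability index. Each assay is scaled to its own libraries, so an index of 0 does not mean equal amounts of RNA. What the index shows is how a gene stands relative to other genes. The median stability index of the ZNF genes was −1.44, that is a level 2.71 times lower in RA than in TR, and over the 6 pairs of an RA with a TR library it ran from −1.67 to −1.27. For the other genes it was −0.12, with a range of −0.17 to −0.12. Limma on log2(RPKM + 0.1), with Benjamini-Hochberg adjustment over 14305 genes at a threshold of 0.05, put 198 of the 266 ZNF genes (74.4%) lower in RA than in TR and 7 higher. Over all genes tested 48.0% were lower and 19.2% higher, and over the genes at 1 RPKM or more in each assay 34.2% were lower and 24.7% higher. The remaining 61 ZNF genes passed in neither direction.

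By replicate means RA lay under TR for 234 ZNF genes (88.0%) and for 54.7% of the 10559 other genes. RA lay under TR in every pair of libraries for 219 ZNF genes and over it in every pair for 10. Such counts over pairs were not made for the other genes. A level at least 4 times lower in RA than in TR was seen for 74 ZNF genes (27.8%) and for 7.58% of the other genes. The count of 198 was between 158 and 200 when any library was left out. The count of 7 was 3 without either TR library, 4 without the third RA library and 11 without the first. Median log2 levels over genes at 1 RPKM or more in each assay were 4.13 in both TR libraries, 3.82 to 3.86 in RA and 3.46 to 3.51 in TA. With each library centred on that median the ZNF median became −1.17, with 176 genes lower and 13 higher, against 41.1% and 25.5% of all genes tested. Centring moves all genes of a library by the same amount, other genes included.

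**Figure D2:**
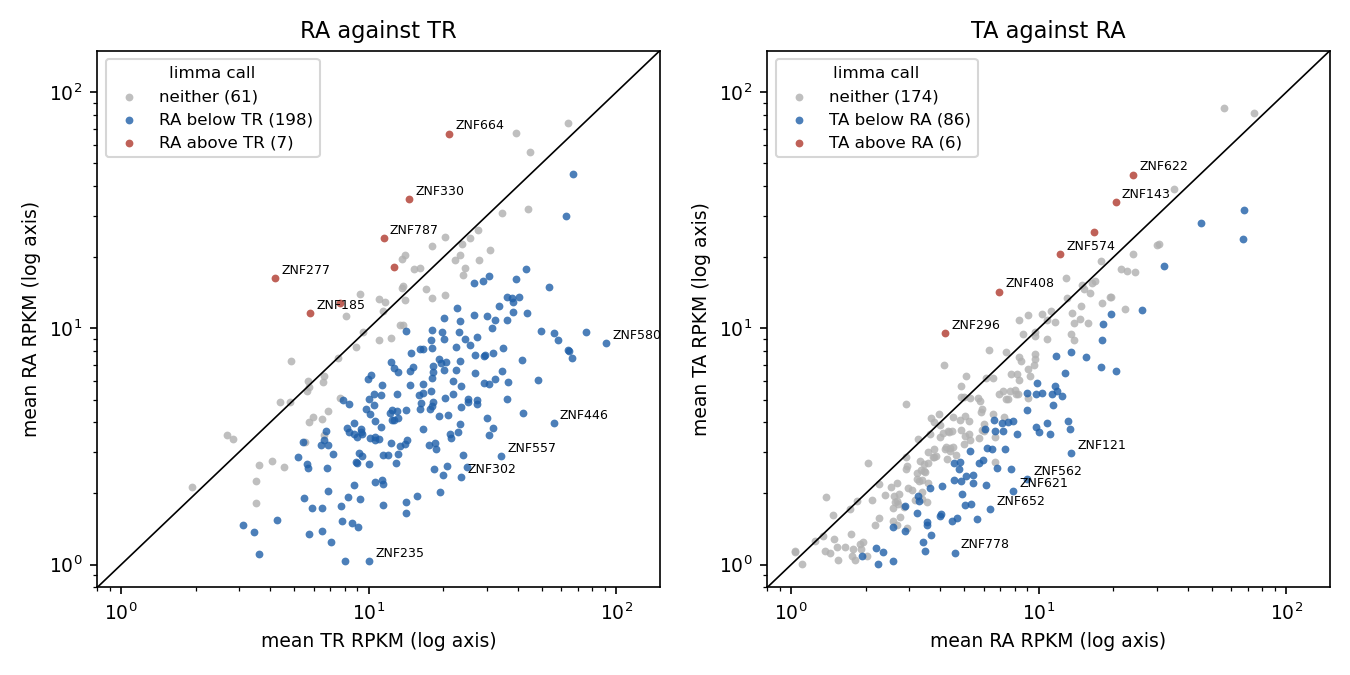
Mean RPKM of the 266 ZNF genes on log axes, RA against TR (left) and TA against RA (right), with the line of equal levels and the limma call as colour. On the left 198 points are called below the line and 7 above it; on the right 86 are called below and 6 above, and the points lie closer to the line.

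The deepest drops from nascent RNA to mRNA were those of ZNF446, ZNF557, ZNF580, ZNF302 and ZNF235, all on chromosome 19. ZNF557, a KRAB gene of 10 fingers, was at 28.2 and 40.5 RPKM in TR, at 2.91, 2.68 and 3.04 in RA and at 1.45 and 1.32 in TA. Its level in RPKM was 12 times lower in RA than in TR, a log2 difference of −3.51 (SE 0.23, adjusted p = 4.08e-06). ZNF302, a KRAB gene of 7 fingers, was at 19.3 and 28 RPKM in TR, at 3.01, 2.20 and 1.80 in RA and at 1.34 and 0.909 in TA, a difference of −3.29 in RA against TR (SE 0.31, adjusted p = 3.43e-05). In both genes the 3 RA libraries lay under the TR libraries by more than the whole spread of either assay, and the exons of neither overlap another annotated gene.

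ZNF235, of 15 fingers, was at 9.61 and 10.5 RPKM in TR and at 0.927, 1.36 and 0.823 in RA, a difference of −3.18 (SE 0.31, adjusted p = 4.39e-05). On polysomes it was at 1.42 and 0.825, which overlaps its RA libraries. ZNF580, a small protein of 3 fingers, was at 84.7 and 98.0 RPKM in TR and at 12.2, 5.54 and 8.23 in RA (−3.45, SE 0.34, adjusted p = 4.35e-05), and ZNF446 was at 57.2 and 54.7 and at 4.32, 4.46 and 3.15 (−3.80, SE 0.23, adjusted p = 2.91e-06). The exons of these last genes overlap others, over 13.2% of their length for ZNF580 (CCDC106 and ZNF581) and 45.3% for ZNF446 (SLC27A5), so reads could have been shared. The same ZNF580 that led the family in TR was thus close to 9 RPKM as mRNA, and ZNF629 fell likewise, from 69.9 and 80.6 RPKM in TR to 11.7, 9.84 and 7.45 in RA (−2.97, SE 0.27, adjusted p = 2.65e-05).

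A few ZNF genes went the other way and were higher in RPKM as mRNA than as nascent RNA. ZNF277 was at 4.28 and 4.10 RPKM in TR and at 11.6, 21.2 and 16.5 in RA, 3.92 times higher, a difference of 1.90 (SE 0.26, adjusted p = 0.000313). ZNF664 was at 25.2 and 16.9 in TR and at 66.0, 80.0 and 54.8 in RA (1.67, SE 0.24, adjusted p = 0.000387). ZNF330, a nucleolar protein without a C2H2 match, was at 12.6 and 16.5 in TR and at 30.9, 36.6 and 38.5 in RA (1.28, SE 0.20, adjusted p = 0.0007). In these genes no RA library overlapped a TR library, as the choice of genes with the same sign in every pair of libraries required.

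ZNF787 was at 11.2 and 11.8 RPKM in TR and at 24.7, 19.2 and 28.4 in RA (1.04, SE 0.29, adjusted p = 0.0117). ZNF185, a LIM domain protein of the actin cytoskeleton that has no C2H2 match either, was at 6.22 and 5.35 in TR and at 9.08, 16.6 and 9.16 in RA (0.94, SE 0.36, adjusted p = 0.0454). Without either TR library ZNF787 and ZNF185 no longer passed, with differences of 1.01 and 1.08 for ZNF787 and of 1.04 and 0.83 for ZNF185. ZNF185 was also lost without the second RA library (0.65) or the third (1.08). The remaining genes called higher were ZNF395 and ZNF511, the latter named after its values were seen, at 7.70 and 7.68 RPKM in TR and 13.2, 12 and 13.2 in RA.

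**Figure D3:**
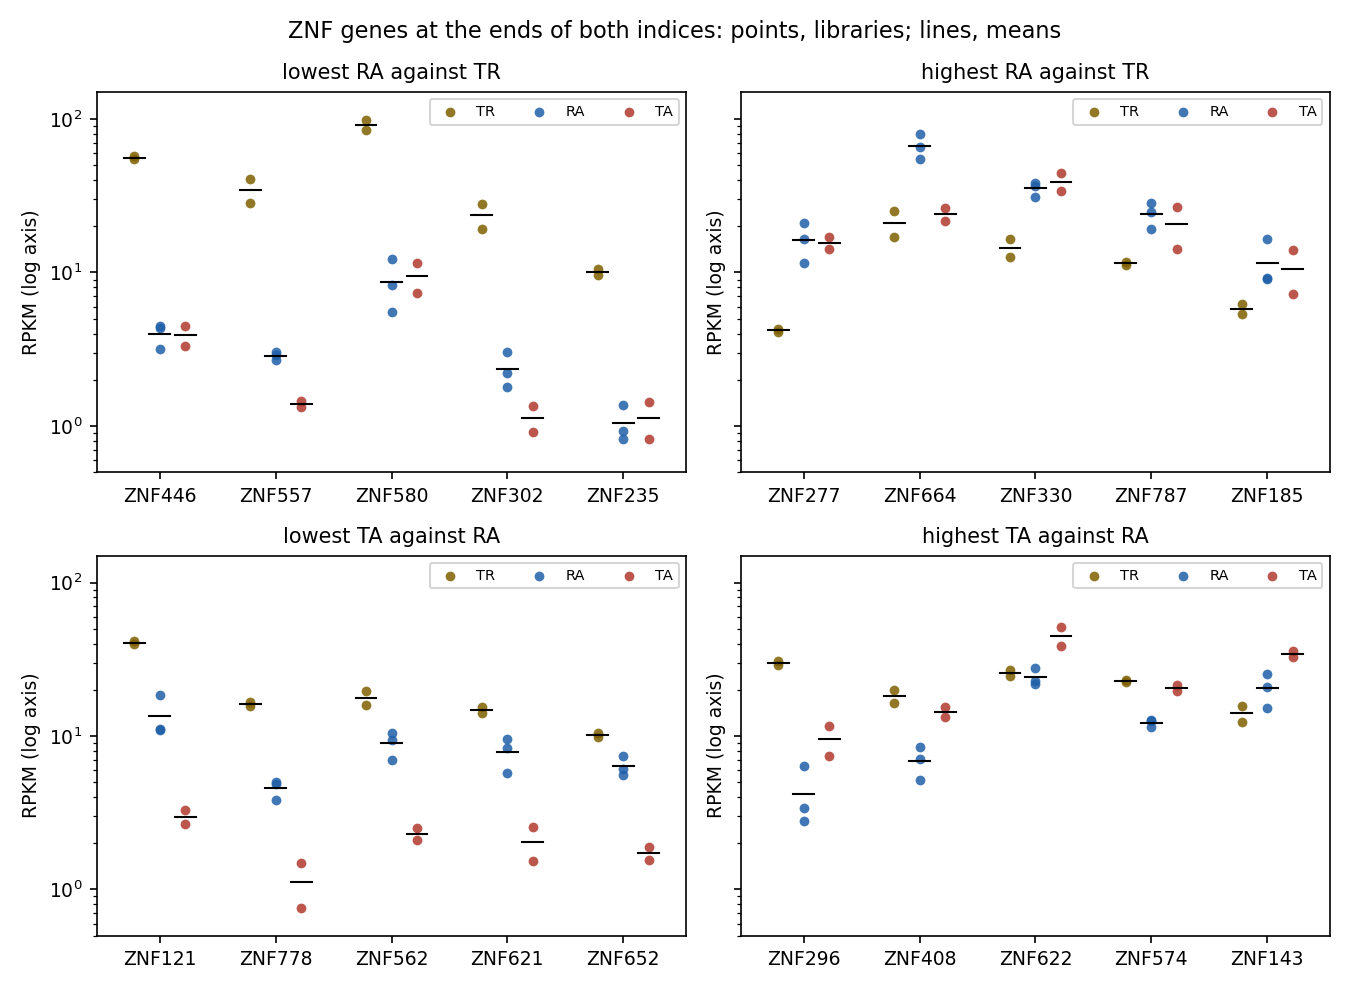
RPKM on a log axis in each library (points) and the mean of each assay (lines) for the 5 ZNF genes with the lowest and the 5 with the highest stability index (top) and translation index (bottom), among genes with the same sign in every pair of libraries. In ZNF557 all RA values (2.68 to 3.04) lie under both TR values (28.2 and 40.5), and in ZNF277 all RA values (11.6 to 21.2) lie over both TR values (4.28 and 4.10).

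From mRNA to polysomes the family changed much less, and its genes were called lower about as often as other genes. The comparison of TA with RA asks how much of the mRNA is engaged in translation, and its log2 ratio is called the translation index. Its median over the ZNF genes was −0.54 (−0.62 to −0.43 over the 6 pairs of libraries), against −0.29 (−0.32 to −0.24) for the other genes. By limma with Benjamini-Hochberg adjustment, 86 ZNF genes (32.3%) were lower in TA than in RA and 6 higher, 174 passing in neither direction. Over all genes tested 29.2% were lower and 6.66% higher, and over the genes at 1 RPKM or more in each assay 28.3% and 8.67%. The share of lower ZNF genes was thus near the background, and that of higher ones, 2.26%, was under it. By replicate means TA lay under RA for 227 ZNF genes (85.3%) and for 64.5% of the other genes.

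These counts moved with the scaling and with single libraries. With each library centred on its median the ZNF median was −0.17, and 40 genes were lower and 11 higher, against 14.1% and 14.7% of all genes tested. The count of 86 was 42 without the first TA library, 53 without the second, and 53 without the third RA library. The count of 6 was 1 without the first TA library and 2 without the second.

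The lowest translation indices were those of ZNF121, ZNF778, ZNF562, ZNF621 and ZNF652. ZNF121, at chr19:9671005-9695180, was at 11, 11.1 and 18.5 RPKM in RA and at 2.67 and 3.28 in TA, 4.55 times lower, a difference of −2.11 (SE 0.26, adjusted p = 0.00297). It had also lost ground before, from 41.4 and 39.8 RPKM in TR. ZNF778 was at 5.04, 4.88 and 3.80 in RA and at 1.49 and 0.754 in TA (−1.99, SE 0.30, adjusted p = 0.00395), and ZNF621 at 5.78, 9.54 and 8.35 and at 2.56 and 1.54 (−1.91, SE 0.30, adjusted p = 0.00418). ZNF652, a repressor that works with the co-repressor CBFA2T3, was at 7.43, 5.57 and 6.06 in RA and at 1.55 and 1.89 in TA (−1.82, SE 0.22, adjusted p = 0.0028). ZNF562 was at 9.39, 6.94 and 10.5 and at 2.09 and 2.50 (−1.90, SE 0.24, adjusted p = 0.00311), though 52.0% of its exonic length is overlapped by noncoding genes. In none of the 5 did a TA library reach an RA library, which the choice of genes with the same sign in every pair required. All 5 have long annotated 3′ UTRs, from 5611 bases in ZNF121 to 11142 in ZNF562.

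The highest were those of ZNF296, ZNF408, ZNF622, ZNF574 and ZNF143. ZNF622, the ribosome assembly factor, was at 21.7, 27.8 and 22.7 RPKM in RA and at 51.0 and 38.7 in TA, a difference of 0.89 (SE 0.19, adjusted p = 0.0111), while its RA and TR levels overlapped. ZNF408 was at 5.16, 8.46 and 7.11 in RA and at 15.3 and 13.3 in TA (1.07, SE 0.24, adjusted p = 0.0127), and ZNF574 at 12.5, 11.4 and 12.8 and at 19.7 and 21.5 (0.75, SE 0.16, adjusted p = 0.00974). ZNF296 was at 3.42, 2.80 and 6.35 in RA and at 7.43 and 11.7 in TA (1.22, SE 0.35, adjusted p = 0.0305). ZNF143, an activator of small nuclear RNA genes and of many mRNA promoters, was at 15.1, 20.9 and 25.4 in RA and at 32.9 and 35.8 in TA (0.77, SE 0.24, adjusted p = 0.0383). The TA libraries lay above all RA libraries in these 5 genes, again by the way they were chosen. The annotated 3′ UTRs of the 5 are 49 to 911 bases long.

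Most of these calls hung on single libraries. ZNF622 (0.69) and ZNF408 (0.97) no longer passed without the first TA library, and ZNF574 (0.68) not without the second. ZNF296 was lost without either TA library (1.54 and 0.90), without either TR library (1.22 both times) and without the first (1.12) or second (0.98) RA library. ZNF143 was lost without any TR or TA library and without the first or second RA library, with values between 0.57 and 0.84. The remaining gene called higher was ZNF282, named after its values were seen, at 14.3, 17.8 and 18.2 RPKM in RA and 24.7 and 26.5 in TA.

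Over both steps together, polysome-bound mRNA against nascent RNA, the family stood 3.96 times lower in RPKM. The median of log2(TA/TR) was −1.99, from −2.12 to −1.93 over the 4 pairs of libraries, against −0.47 for the other genes. Limma with Benjamini-Hochberg adjustment put 225 of the 266 (84.6%) lower in TA than in TR and 6 higher, where 57.5% of all genes tested were lower and 17.0% higher (45.7% and 21.9% of the genes at 1 RPKM or more in each assay). The 6 were ZNF143, ZNF207, ZNF277, ZNF330, ZNF622 and ZNF777, of which ZNF777 was named after its values were seen, and 3 were left without the second TR library. ZNF330, for example, was at 12.6 and 16.5 RPKM in TR and at 44.2 and 33.8 in TA, with an adjusted p of 0.00053. ZNF143 was at 12.3 and 15.8 in TR, so that its level rose at each step by the means, although the first step did not pass (0.52, SE 0.24, adjusted p = 0.0867).

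The comparisons of RA with TR and of TA with RA share the RA libraries, and the combined counts are given only as counts. Lower in RA than in TR and lower again in TA than in RA were 65 ZNF genes (24.4%), ZNF121, ZNF778 and ZNF589 among them, and 11.1% of the genes at 1 RPKM or more in each assay. ZNF282, ZNF296, ZNF408 and ZNF574 were lower in RA than in TR and higher in TA than in RA, as were 1.58% of those genes. ZNF395, ZNF511 and ZNF664 were higher in RA than in TR and lower in TA than in RA (5.63% of those genes), and none of the 266 was higher at both steps (4.66%). The call of ZNF395 in TA against RA was lost without either TA library (−0.72 and −0.83), without the third RA library (−0.79) and after centring (−0.42). ZNF664 was at 26.2 and 21.6 RPKM in TA, 2.80 times under its RA level (−1.47, SE 0.24, adjusted p = 0.00462), which brought it back to about its level in TR.

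The rule did not use the proteins, whose features differ widely. GENCODE 44 lifted to GRCh37 matched 265 of the 266 genes, 262 of them protein-coding, and a usable coding sequence was at hand for 260. A C2H2 finger was counted wherever cysteines 2 to 4 residues apart were followed, after 12 residues, by histidines 3 to 5 residues apart. The genes held 0 to 36 such matches, with a median of 9 and the most in ZNF142. The classical finger linker was found in 173 of the 260, and a letter pattern of the KRAB A box in 108 (41.5%). A gene without a match may still hold a diverged domain: the pattern says only that these letters are not there. The genes without a C2H2 match were ZNF185, ZNF330, ZNF503, ZNF703 and ZNF839.

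The more fingers a gene encodes, the lower its mRNA lay under its nascent RNA, in medians. The median stability index was −0.50 for 15 genes with 0 or 1 match, −1.13 for 53 with 2 to 5, −1.41 for 67 with 6 to 9, −1.52 for 79 with 10 to 14 and −1.67 for 46 with 15 or more. Called lower in RA than in TR were 40%, 62.3%, 73.1%, 77.2% and 93.5% of these groups. Across the 260 genes the number of matches had a Spearman rho of −0.24 with the stability index. With log2 RA it had −0.34 and with log2 TR −0.13. The median RA of the 5 groups was 12.9, 8.65, 6.51, 4.10 and 4.44 RPKM. RA enters the index, so a trend that follows RA is partly built in. Whether finger number goes with the index at a given level of RA was not tested. Genes with 6 or more matches lay 0.56 lower in median than genes with fewer, between 0.39 and 0.70 lower over the 6 pairs of libraries. Among the 144 genes whose exons overlap no other gene this difference was −1.11.

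Genes with a KRAB match had a median stability index of −1.61, and 88.0% of them were called lower in RA than in TR. Without a match these were −1.15 and 63.8%. KRAB genes were lower at each stage, with median levels of 12.2 RPKM in TR, 3.56 in RA and 2.26 in TA against 18.1, 7.33 and 5.05. The difference of the medians was −0.45, and −0.56 to −0.34 over the pairs of libraries; at a threshold of 2 RPKM in each assay it was −0.24. Of the 108 KRAB genes 102 had 6 or more fingers. Among genes with 6 or more, the 102 with a KRAB match had a median of −1.61 and 90 without a match had −1.42, while 62 genes with neither had −0.92. The translation index differed less between these groups. Its median was −0.61 with and −0.49 without a KRAB match, and −0.56 with 6 or more fingers against −0.46 with fewer. The former difference ran from −0.23 to −0.05 over the pairs of libraries and the latter from −0.20 to −0.00.

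**Figure D4:**
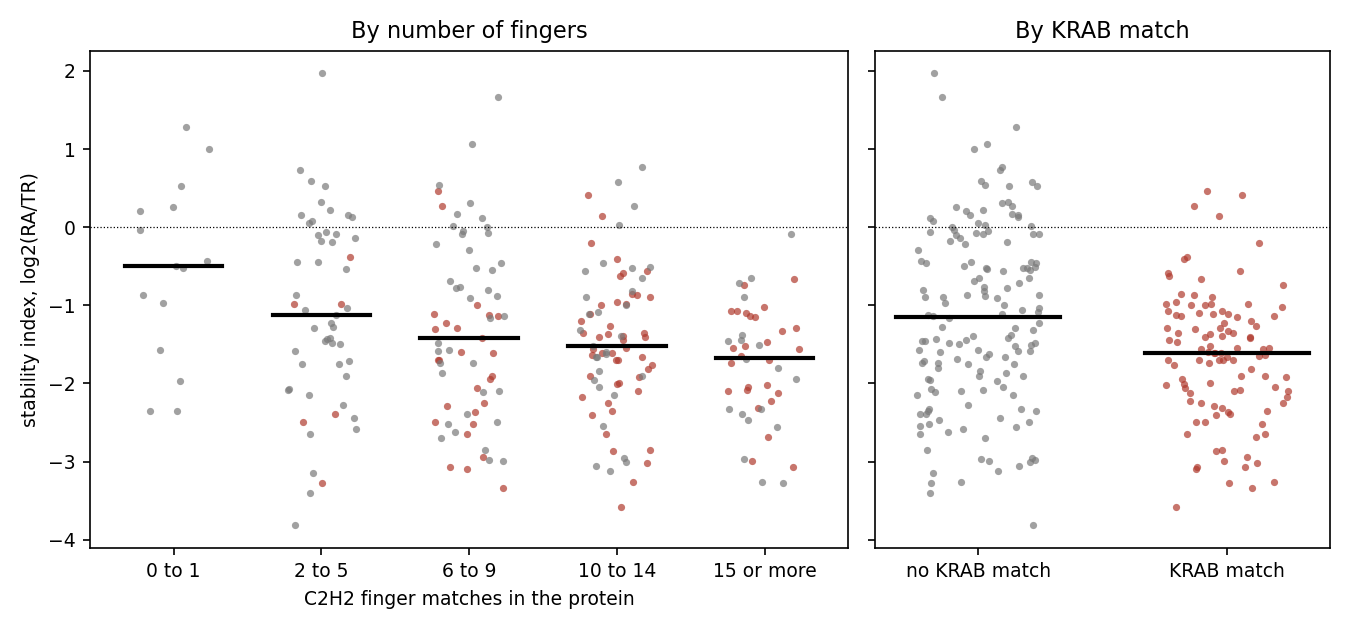
Stability index, log2(RA/TR), of the 260 ZNF genes with a coding sequence (points; red, with a KRAB match; grey, without), by the number of C2H2 finger matches (left) and by KRAB match (right), with the median of each group (bars). The medians go from −0.50 with 0 or 1 finger to −1.67 with 15 or more, and the groups overlap widely.

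Chromosome 19 held 94 of the 265 placed genes (35.5%), against 6.52% of 10482 other genes, and 61 of the 94 had a KRAB match. Their median stability index was −1.67, against −1.14 for the 171 elsewhere, and 86.2% against 67.8% were lower in RA than in TR. Their translation index had about the same median as that of the rest, −0.53 against −0.54. Chromosome, KRAB domain and finger number go together in this family, so the part of each cannot be told apart from these medians. Reads from such similar arrays can also match several genes, and how those reads were counted is not stated.

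The gap to other genes was there at each level of mRNA and of transcription. At 1 to 2 RPKM in RA the median stability index was −2.23 for 23 ZNF genes and −1.58 for 276 others, and at 5 to 10 RPKM it was −1.46 for 79 and −0.67 for 2137. At 20 RPKM or more it was 0.07 for 18 ZNF genes and 0.61 for 4193 others. Grouped by TR instead, it was −0.51 for 16 ZNF genes at 1 to 5 RPKM and −2.49 for 21 at 40 or more, where 761 and 1766 other genes had 0.08 and −0.35. RA and TR each enter the index, so a trend along either is partly built in, and only the values at the same level are compared here.

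The translation index went with the length of the 3′ UTR, in the ZNF genes as in others. Its median was −0.23 for 47 ZNF genes with an annotated 3′ UTR under 500 bases, −0.34 for 43 with 500 to 1000, −0.52 for 69 with 1000 to 2000, −0.66 for 60 with 2000 to 4000 and −0.96 for 43 with 4000 or more. In the other genes the medians of these groups were −0.04, −0.14, −0.26, −0.50 and −0.64. Of the ZNF genes with 4000 bases or more, 67.4% were called lower in TA than in RA, and of the other genes 44.1%. Spearman's rho between length and index was −0.42 across 262 ZNF genes (−0.47 to −0.30 over the 6 pairs of libraries) and −0.25 across 10380 other genes (−0.35 to −0.15). The stability index showed little of this, with a rho of 0.07 in the ZNF genes. The lengths are those of 1 annotated transcript per gene and were not measured in these cells, and the same libraries stand behind every point. The median 3′ UTR of the ZNF genes, 1522.5 bases, was somewhat longer than the 1294 of other genes.

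**Figure D5:**
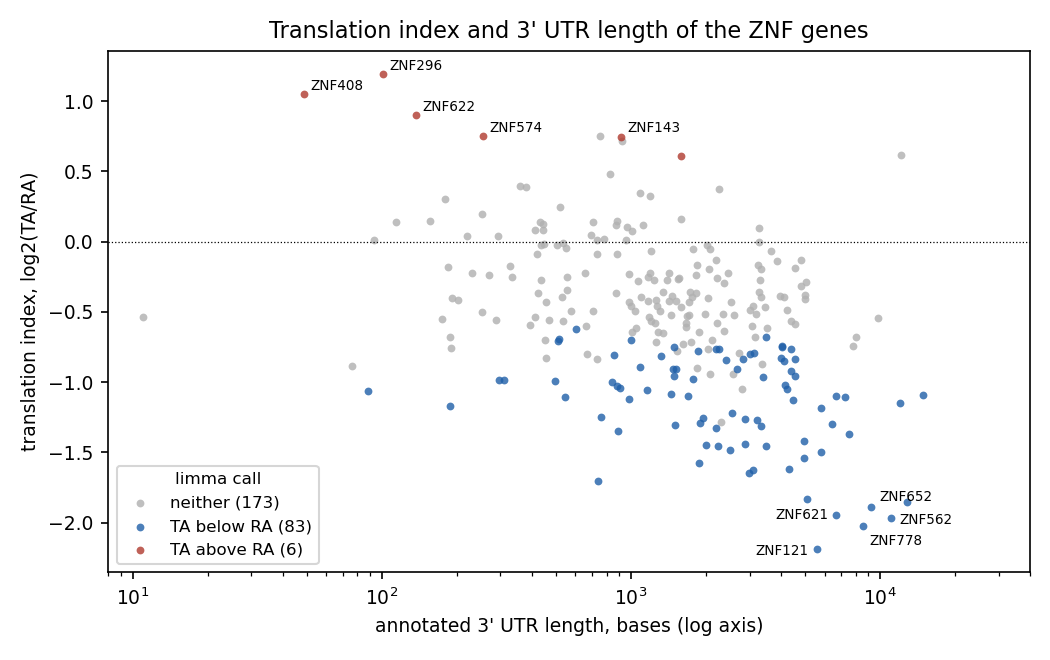
Translation index, log2(TA/RA), of 262 ZNF genes against the annotated length of the 3′ UTR in bases on a log axis, coloured by limma call. The 5 lowest named genes, ZNF121, ZNF778, ZNF562, ZNF621 and ZNF652, have 3′ UTRs of 5611 to 11142 bases, and the 5 highest, ZNF296, ZNF408, ZNF622, ZNF574 and ZNF143, of 49 to 911.

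Members listed for RNA and ribosome biology had mRNA nearer to their nascent RNA, in median, than the family as a whole. Of 14 such symbols listed, 13 were among the 266, and their median stability index was −0.10, against −1.44 for all 266. Most of the 13 lay at 10 RPKM or more in RA, however. All 45 ZNF genes at 10 to 20 RPKM in RA had a median of −0.52, and the 18 at 20 or more 0.07. Whether function goes with the index at a given level was not tested. In RA against TR 1 of the 13 was higher (ZNF330), 4 were lower and 8 passed in neither direction, and in TA against RA 1 was higher (ZNF622), 3 were lower and 9 neither. Over all genes tested 19.2% were higher and 48.0% lower in the former comparison, and 6.66% and 29.2% in the latter. Over the genes at 1 RPKM or more in each assay these shares were 24.7% and 34.2%, and 8.67% and 28.3%. ZNF598, the ubiquitin ligase that marks collided ribosomes, was at 23.5 and 17.2 RPKM in TR, 20.1, 26.1 and 27.2 in RA and 17.0 and 17.8 in TA, with overlap between TR and RA. ZNF207 was at 48.4 and 41.7, at 72.0, 53.2 and 43.2, and at 104 and 67.6, and passed only in TA against TR (0.90, adjusted p = 0.0234). That call was lost without either TR library (1.01 and 0.79) or without the first TA library (0.59).

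The lower ones included ZNF346, which binds double-stranded RNA, at 14.5 and 20.4 RPKM in TR and 2.77, 4.0 and 2.88 in RA (−2.40, SE 0.26, adjusted p = 8.64e-05). ZNF830, a spliceosome-associated protein, was at 34.0 and 42.8 in TR and 12, 14.4 and 12.2 in RA (−1.56, SE 0.19, adjusted p = 0.000144). ZNF326, which couples splicing to transcription, was at 13.2 and 9.34 and at 8.90, 4.29 and 4.03 (−1.04, SE 0.36, adjusted p = 0.0324), a call lost without either TR library (−0.79 and −1.29) and without the second (−0.88) or the third (−0.84) RA library. ZNF451, on this list although it is a SUMO ligase, was the fourth, at 10.2 and 9.79 and at 4.67, 4.64 and 5.81 (−0.98, SE 0.20, adjusted p = 0.00261). ZNF106, at 10.9, 11.3 and 13.5 RPKM in RA, was lower on polysomes, at 5.77 and 5.10 (−1.11, SE 0.20, adjusted p = 0.0062).

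Among sequence-specific factors with known targets 16 of 17 listed symbols were among the 266, with a median stability index of −0.60. In RA against TR 8 were lower and 1 higher, and in TA against RA 6 were lower and 1 higher (ZNF143). The shares of lower genes were near those over all genes tested, 48.0% and 29.2%, where 19.2% and 6.66% were higher. Over the genes at 1 RPKM or more in each assay, a level these 16 had to reach, 34.2% and 28.3% were lower. In those genes 24.7% and 8.67% were higher. ZNF335, a neural progenitor regulator, was at 50.9 and 55.9 RPKM in TR and 13.2, 13.4 and 18.3 in RA (−1.84, SE 0.21, adjusted p = 9.36e-05). ZNF281, which binds GC-rich promoters, was at 35.9 and 42.9 and at 15.1, 15.7 and 17.7 (−1.28, SE 0.17, adjusted p = 0.00022). ZNF24, by contrast, was at 23.5 and 24.0, at 22.9, 22 and 23.3, and at 19.3 and 15.5, with RA hardly under TR (−0.06, SE 0.16, adjusted p = 0.746).

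ZNF217, an amplified oncogene in several carcinomas, was at 13.4 and 13.9 RPKM in TR, 11.4, 16.3 and 16.8 in RA and 13.1 and 11.7 in TA, and passed no test. ZNF76, a close relative of ZNF143, was at 16.1 and 11.9, at 13.4, 13.1 and 13.0, and at 4.31 and 3.77. It was lower in TA than in RA (−1.68, SE 0.19, adjusted p = 0.00264), where ZNF143 was higher. ZNF410, which activates CHD4, and ZNF148 were likewise lower in TA than in RA (−1.09 and −1.08, adjusted p = 0.0098 and 0.01), calls lost without the second TA library (−0.97 and −0.96); 97.8% of the exonic length of ZNF410 is overlapped by other genes. ZNF395 was at 13.0 and 12.2 RPKM in TR, 21.4, 15.5 and 17.5 in RA and 10.1 and 10.9 in TA (0.51, SE 0.19, adjusted p = 0.0409 in RA against TR), a call lost when any library but the second RA library was left out (0.38 to 0.55). ZNF350 was listed at 0 in all RA and TA libraries.

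Of 8 KRAB factors known to bind retroelements or imprinted regions, ZNF445, which guards imprinted methylation, was the only gene among the 266. It was at 13.8 and 15.6 RPKM in TR, 5.86, 5.14 and 6.23 in RA and 2.91 and 2.49 in TA, lower at both steps (−1.34 and −1.06, SE 0.20 each, adjusted p = 0.000494 and 0.00711). ZNF91, known for binding SVA elements, was transcribed at 3.33 and 3.40 RPKM but was at 0.556, 0.388 and 0.416 in RA, and ZNF765 was at 6.96 and 8.38 and at 1.46, 1.45 and 1.17 and fell under the threshold in TA. The remaining 5, ZNF43, ZNF84, ZNF93, ZNF141 and ZNF649, were at 0.0636 RPKM or less in every library.

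For the partners of the KRAB domain the median lay on the other side of 0. Of 18 co-repressor genes tested, 6 were higher in RA than in TR, 3 lower and 9 neither, where 19.2% of all genes tested were higher and 48.0% lower. Over the genes at 1 RPKM or more in each assay these shares were 24.7% and 34.2%. The 18 had a median stability index of 0.26, and most lay at 10 RPKM or more in RA. Other genes at 10 to 20 RPKM in RA had a median of −0.16, and those at 20 or more 0.61. TRIM28, which KRAB binds directly, was at 128 and 101 RPKM in TR, 328, 207 and 226 in RA and 380 and 426 in TA (1.12, SE 0.27, adjusted p = 0.00618 in RA against TR). SETDB1, the methyltransferase it recruits, was at 28.4 and 34.1, at 12.8, 19 and 16.9, and at 18.6 and 14.7 (−0.95, SE 0.22, adjusted p = 0.00524). In TA, TRIM28 thus stood above every one of the 266 ZNF genes, whose highest value was 104 RPKM, on a scale that is per exon length.

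Genes with other zinc finger symbols also lay lower in RA than in TR, in median. Compared were 77 genes with ZBTB, ZSCAN, ZKSCAN, ZFP, KLF or SP symbols at 1 RPKM or more in each assay. They were picked by symbol alone, and no C2H2 match was required. Their median stability index was −1.05 (−1.35 to −0.83 over the pairs of libraries), against −1.44 in the ZNF genes. The latter ran from −1.67 to −1.27, so the ranges overlapped. Lower in RA than in TR were 68.8% of the 77 and 74.4% of the ZNF genes. The 77 had a higher median RA, 7.04 against 5.29 RPKM, and RA enters the index. Their median translation index was −0.55, against −0.54 in the ZNF genes. The median of log2(TA/TR) was −1.53 (−1.63 to −1.32 over the 4 pairs of libraries), above the −1.99 (−2.12 to −1.93) of the ZNF genes.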

How the data were processed

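The 7 libraries were grouped by assay from the labels. According to the methods and the submitters' processing notes, the authors aligned reads to hg19 with TopHat, counted exonic reads per gene with HTSeq and deposited RPKM values; the annotation, strand setting and handling of multiply matching reads are not given in the sources used here. The genes and lists described here were chosen with earlier results of these data known. Genes at 1 RPKM or more in at least 1 assay (14305) were fitted together on log2(RPKM + 0.1), all 7 libraries sharing 1 trended variance, with limma 3.58.1 in R 4.3.3 and Benjamini-Hochberg adjustment, tested on simulated data. Fold changes of low genes are understated on this scale. Indices are log2 ratios of replicate means. Reads were recovered from 1 size per library and, for each gene, the smallest exon length that made its reads whole. With these, 100% of values above 0 were whole within 0.001 reads, which is what the lengths were chosen for. No count test was run on them, and depth enters only as a description. Gene models, fingers (as first match within a coding exon) and overlaps came from GENCODE 44 on GRCh37; proteins were translated from its coding sequences. 4 samples shared a sequencing lane per the labels' protocol, but which is not given, so lanes were not examined. Named genes were the 5 highest and lowest of each index with the same sign in every pair of libraries, the 3 highest and lowest levels per assay, the listed genes and those next to the threshold. Alternatives were the pseudocount, the filter, centring, a replicate block, leaving out each library, the RPKM threshold, and genes without overlap. 16 symbols had no values.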

Additional observations from a re-analysis of the deposited data

How the results depend on the processing

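There were 2 or 3 libraries per assay, and 3391897 counted reads in the shallowest. Differences under about the pooled SD of 0.23 to 0.34 log2 between replicates could thus not be resolved for single genes. Larger ones often did not pass either. By limma ZNF384 failed in RA against TR (−0.54, adjusted p = 0.0534), and ZNF326 in TA against RA (−0.63, adjusted p = 0.202). ZNF395 passed in RA against TR at 0.51. Where a TR or TA library was left out, the lone remaining library was assumed to vary like the other groups.

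The labels give the assays the same replicate numbers. Over 10825 genes the difference of replicate 1 from 2 correlated at 0.15 between TR and RA, −0.56 between RA and TA and 0.02 between TR and TA. Libraries of the same number thus varied in opposite directions between RA and TA. The fit without a block takes the RA and TA libraries as independent, and a block by number does not describe such a pattern. Whether libraries pair in another order was not tested. With the number as a block, the count of ZNF genes higher in RA than in TR went from 7 to 3, higher in TA than in RA from 6 to 1 and lower in TA than in RA from 86 to 27, and the differences in translation index went from −0.12 to −0.060 for KRAB genes and from −0.098 to −0.038 for genes with 6 or more fingers. The other counts moved by less than 1.5 times, and the other medians and differences by less than their SD over library pairs.

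Centring each library gave 13 and 176 genes higher and lower in RA than in TR (25.5% and 41.1% of all genes tested), 11 and 40 in TA than in RA (14.7% and 14.1%) and 15 and 189 in TA than in TR (27.6% and 44.3% of all genes tested), with medians of −1.17, −0.17 and −1.38. Without a filter on low values 3 genes were higher in TA than in RA. Among the 144 genes without overlap the counts were, by construction, smaller: 4 and 100, 5 and 44, and 5 and 119, with a median log2(TA/TR) of −1.83. That median was −1.81 at a threshold of 2 RPKM, −2.17 at 0.5 RPKM.

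Leaving out libraries gave 3 to 11 and 158 to 200 genes higher and lower in RA than in TR, 1 to 6 and 42 to 101 in TA than in RA, and 3 to 7 and 199 to 227 in TA than in TR. The medians stayed within −1.53 to −1.30, −0.58 to −0.51 and −2.10 to −1.91.

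The stability difference of KRAB genes was −0.54 without overlap, −0.24 at 2 RPKM and −0.46 to −0.31 with libraries left out. That of genes with 6 or more fingers was −1.11 without overlap, −0.44 at 2 RPKM, −0.39 when split at 10 fingers and −0.65 to −0.41 with libraries left out. The KRAB difference in translation index was −0.014 without overlap, −0.032 at 2 RPKM, −0.19 at 0.5 RPKM and −0.15 to −0.07 with libraries left out. The finger difference was −0.00459 without overlap, −0.18 to −0.00858 with libraries left out, and reversed to 0.013 when split at 10 fingers. The cause of these shifts was not tested.

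Of 2184 values of 56 named genes under the alternatives, 1896 kept direction and side of the threshold, 194 lost the call, 22 gained it, 71 changed sign without being called as reported, and 1 called value reversed: ZNF24, whose TA was called below TR, stood 0.19 above it after centring.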
